A study of Rattus norvegicus with 12 samples.

Results

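The 10 genes described here encode pattern recognition receptors and their adaptors: Tlr2, Tlr3, Tlr4, Tlr7, Tlr8, Tlr9, Cd14, Myd88, Clec7a and Card9. They were taken by symbol from a table of 30562 rat genes, and all 10 passed the filter on low counts. The set was put together with results of these samples known, and Card9 was chosen by its measured rise in VP4:2 over CC4:2, so its values are given as a description without a test. It held at most 61.4 counts in a sample and passed the filter through the VP4:2 samples. Poly(A) RNA came from rat sciatic nerve stumps in 4 groups of 3 samples. The labels name no conduit for the Control stumps. CC4:2 and CC4:4 stumps sat in conduits shaped as truncated cones, of gradients 4:2 and 4:4. VP4:2 was the 4:2 shape carrying verteporfin, which keeps the coactivator YAP from binding TEAD factors. Strain, age, time after surgery and the treatment of the control stumps are not given in the sources used here. Nor do the labels tie the 3 samples of any group to separate rats, so the p-values reflect only sample-to-sample spread, part of which may be technical.

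Toll-like receptors recognise microbial molecules and products of damaged cells. TLR2 and TLR4 act at the cell surface, where CD14 hands them lipid ligands, while TLR3, TLR7, TLR8 and TLR9 read nucleic acids inside endosomes. All of these receptors except TLR3 signal through the adaptor MyD88 to NF-kB. Dectin-1, the product of Clec7a, is a C-type lectin that binds fungal glucans and signals through the kinase SYK and the adaptor CARD9. In injured nerve, macrophages carry many of these receptors, and Schwann cells are known to carry some of them.

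Each sample held 13763106 to 18632301 counts in all, and 17561 to 17984 genes had a count. Sequencing used the NovaSeq X Plus for replicates 1 and 2 of every group, and the DNBSEQ-T7 for replicate 3. Control replicate 1 stood apart from the other controls, with a summed level of Schwann cell markers of 342.2 TMM-scaled CPM against 4199 and 2439, and of B and plasma cell markers of 765.6 CPM against 6946 and 5635. The labelled tissue was nerve, and Schwann cell markers summed to 12520 to 32930 CPM in CC4:2, 11410 to 17240 in VP4:2 and 2361 to 3112 in CC4:4. The summed level of 15 macrophage markers was 8095 to 13830 CPM in Control, 2257 to 2667 in CC4:2, 6846 to 8187 in CC4:4 and 6792 to 10100 in VP4:2. In bulk tissue, fewer cells of a type and less RNA per cell cannot be told apart.

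Most of the set was lower in the CC4:2 stumps than in the control stumps, and the receptor genes Tlr2, Tlr7, Tlr8, Cd14 and Clec7a were higher with verteporfin than without it. Tlr3 and Tlr4 were called in none of the 5 comparisons by the edgeR fit used throughout. Of the 9 genes counted, without Card9, 7 were lower in CC4:2 than in Control and 0 were higher, where 43.5% of the 15712 genes tested were called in either direction, 23.2% lower and 20.3% higher. The median log2 fold change of the 9 genes was -1.57, and that of all genes was -0.05. Against CC4:4, 6 of 9 genes were lower in CC4:2 (39.2% of all genes called, 20.7% lower, 18.5% higher), with a median of -1.36 beside 0.01 for all genes. In VP4:2 against CC4:2, 5 of 9 genes were higher and 0 lower (6.23% of all genes called, 5.23% higher, 0.999% lower), with a median of 1.31 beside -0.03. In VP4:2 against Control, 2 of 9 genes were lower (18.9% of all genes called, 9.57% lower, 9.3% higher), with a median of -0.57 beside -0.04. In CC4:4 against Control, edgeR called 0% of all genes and so none of the 9 genes counted, while 830 genes had an unadjusted p under 0.05. DESeq2 called 11 genes there and limma-voom called 0. These comparisons share samples (Control in 3 of them, CC4:2 in 3), so their results are not independent of each other. Fold changes below are log2 values ± SE from edgeR's quasi-likelihood test with 3 samples per group, and adjusted p is Benjamini-Hochberg over all genes tested.

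**Figure D1:**
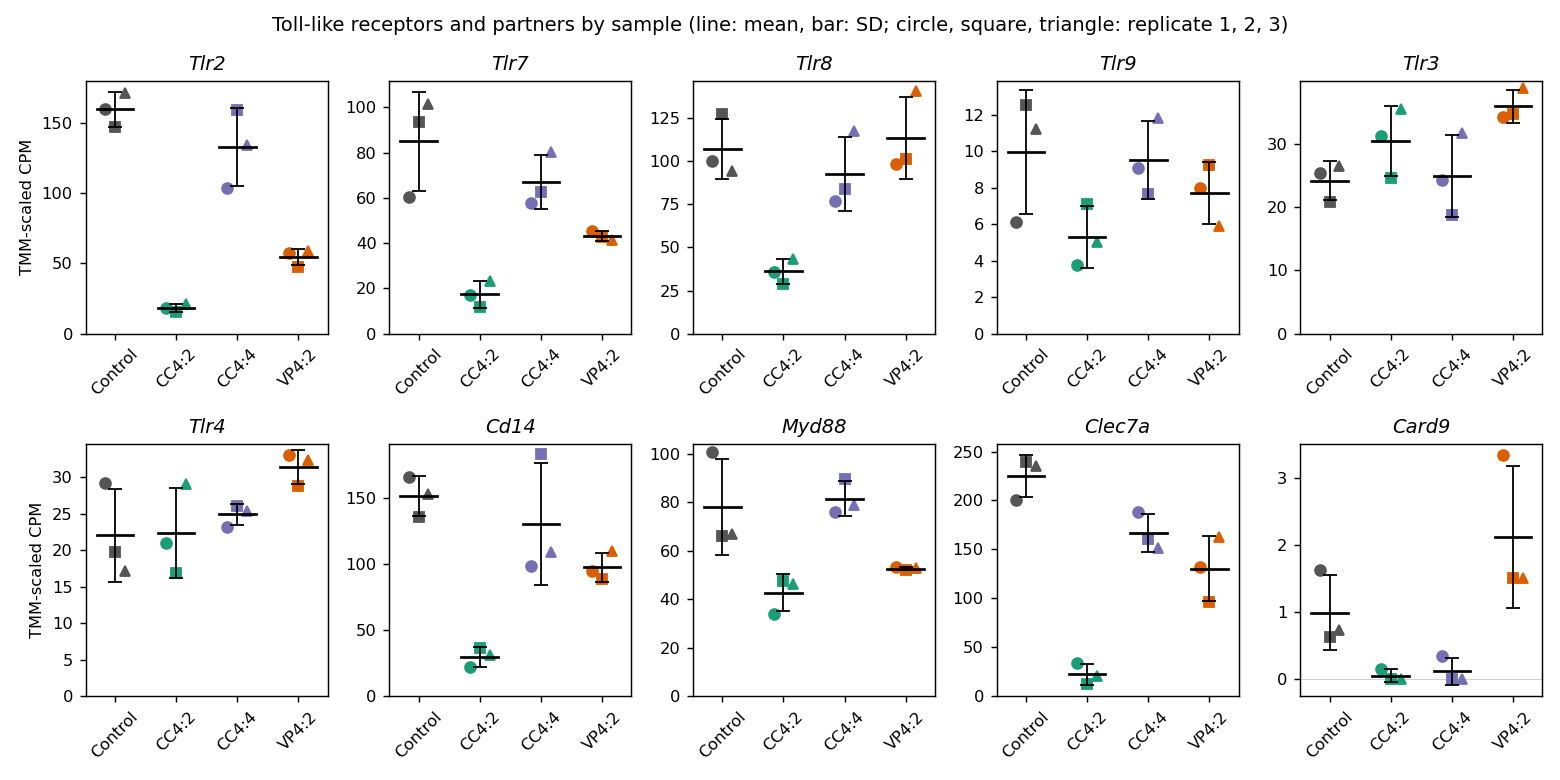
TMM-scaled CPM of each of the 10 genes in each of the 12 samples, by group, on an axis of its own for each gene. Tlr2, Cd14 and Clec7a lie lowest in the 3 CC4:2 samples, and Tlr4 overlaps between CC4:2 and Control.

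Among the surface receptors, Tlr2 senses bacterial lipoproteins as a pair with TLR1 or TLR6. Its level was 160.4, 147.1 and 171.8 CPM in Control, 18.27, 15.23 and 21.2 in CC4:2, 103.9, 159.5 and 134.7 in CC4:4, and 57.16, 47.8 and 58.86 in VP4:2. All CC4:2 samples lay below all samples of the other groups, and the VP4:2 samples lay between CC4:2 and the rest with no overlap. Tlr2 was lower in CC4:2 than in Control by a log2 fold change of -3.13 ± 0.19 (adjusted p = 6.88e-06). It was higher in VP4:2 than in CC4:2 by 1.58 ± 0.18 (adjusted p = 0.00056). Tlr2 was still lower in VP4:2 than in Control, at -1.55 ± 0.18 (adjusted p = 0.00139). That call held with each library left out in turn but not on the NovaSeq samples alone (-1.53, adjusted p = 0.0727).

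Cd14, which encodes the lipid-transfer co-receptor, showed the same order of group means. It stood at 165.8, 135.7 and 153 CPM in Control, 21.87, 36.48 and 30.96 in CC4:2, 98.46, 183 and 109.4 in CC4:4, and 94.76, 88.41 and 109.9 in VP4:2. The CC4:2 samples were below all others, and CC4:4 overlapped both Control and VP4:2. Cd14 differed by -2.35 ± 0.26 between CC4:2 and Control (adjusted p = 0.000115) and by 1.71 ± 0.25 between VP4:2 and CC4:2 (adjusted p = 0.0024). The second call was lost on the NovaSeq samples alone (1.65, adjusted p = 0.101). Between VP4:2 and Control the difference of -0.63 ± 0.24 did not pass (adjusted p = 0.093), though it did with only those groups in the fit (-0.66, adjusted p = 0.0357).

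Tlr4, the receptor for bacterial lipopolysaccharide, did not follow Cd14. Its level was 29.24, 19.75 and 17.2 CPM in Control, 20.97, 16.92 and 29.03 in CC4:2, 23.24, 26.02 and 25.44 in CC4:4, and 33.05, 28.79 and 32.35 in VP4:2. CC4:2 spanned nearly the whole range of Control. The difference between CC4:2 and Control was 0.01 ± 0.22 (adjusted p = 0.967), and its sign changed between platforms, at -0.34 on the NovaSeq samples and 0.74 on the DNBSEQ samples. Between VP4:2 and Control it was 0.51 ± 0.22 (adjusted p = 0.134), and it passed only without Control replicate 1, at 0.77 (adjusted p = 0.0221). Ly96, whose product MD-2 binds lipopolysaccharide as the partner of TLR4 in the receptor complex, was lower in CC4:2 than in Control by -1.64 ± 0.29 (adjusted p = 0.00124, means 7.61 and 23.7 CPM). The within-sample log2 ratio of Tlr4 to Ly96 was 1.69 higher in CC4:2 than in Control (exact two-sided permutation test, p = 0.1, the smallest that 3 against 3 samples allow, and 0.12 adjusted over 12 ratio tests). The ratio pairs were picked after their values were seen.

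Tlr4, called in none of the 5 comparisons, and Tlr8, called in 3, are set side by side by their upstream sequence from RefSeq's table for GRCr8, 5′ to 3′ on the gene's strand. Capitals mark AGGAAG, the core bound by ETS factors such as PU.1, which reads CTTCCT on the other strand, and GGAATG, a motif of TEAD factors. Tlr4 is at chr5:85160997-85161246 (plus strand) and Tlr8 at chrX:30708476-30708713 (plus strand). The Tlr8 stretch has 238 bases and stops 12 bases short of the table's start, because another annotated start of the gene lies there.
Tlr4: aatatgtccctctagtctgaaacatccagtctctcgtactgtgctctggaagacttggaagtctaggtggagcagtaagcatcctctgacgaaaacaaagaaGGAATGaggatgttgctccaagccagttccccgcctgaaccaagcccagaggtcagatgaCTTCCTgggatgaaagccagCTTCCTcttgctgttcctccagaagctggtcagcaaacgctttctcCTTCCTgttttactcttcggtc
Tlr8: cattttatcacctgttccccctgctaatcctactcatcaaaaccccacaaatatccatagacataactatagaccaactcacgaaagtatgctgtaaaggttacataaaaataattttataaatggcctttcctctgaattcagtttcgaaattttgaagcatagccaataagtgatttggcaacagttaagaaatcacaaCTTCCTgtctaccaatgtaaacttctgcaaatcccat

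Both strands of the 250 bases before the start were searched in all 10 genes. AGGAAG was found in 5 of them (Tlr4, Tlr7, Tlr8, Tlr9 and Cd14) and in 29.5% of the 33469 promoters of the table. Tlr4 held it at 3 places, 88, 68 and 22 bases before the start, and Tlr8 at 1 place, 49 bases before it, counting the 12 bases not shown. GGAATG was found in Tlr4 alone of the 10 and in 12.1% of all promoters. The NF-kB consensus was found in Tlr2 (6.33% of all promoters), an interferon response motif in Myd88 (3.41%), and the AP-1 motif TGANTCA in Tlr9 and Myd88 (6.34%). Not all of these bases lay outside the annotated genes. All 250 bases of Tlr2 and Cd14, and the 102 nearest the start in Tlr7, lay past another annotated start of the gene. The matches of Tlr2, Cd14 and Tlr7 (95 bases before the start) fell within these stretches. These matches describe letters in the sequence, and binding was not measured.

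Of the endosomal receptors, Tlr7, a sensor of single-stranded RNA, stood at 60.28, 93.31 and 101.5 CPM in Control, 16.94, 11.79 and 23.39 in CC4:2, 57.8, 62.41 and 80.36 in CC4:4, and 45.33, 42.59 and 41.17 in VP4:2. CC4:2 lay below all other samples, and VP4:2 lay below all control samples. The log2 difference was -2.29 ± 0.26 for CC4:2 against Control (adjusted p = 0.000147) and 1.31 ± 0.26 for VP4:2 against CC4:2 (adjusted p = 0.0126). For VP4:2 against Control it was -0.98 ± 0.25 (adjusted p = 0.0237). That last call was lost without Control replicate 2 (adjusted p = 0.0649), Control replicate 3 (0.0929), or VP4:2 replicate 1 (0.0664), 2 (0.0759) or 3 (0.0733).

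Tlr8 encodes a second RNA sensor and lies near Tlr7 on the X chromosome. Its level was 99.98, 127.2 and 94.34 CPM in Control, 35.74, 29.04 and 43.49 in CC4:2, 77.22, 83.95 and 117.3 in CC4:4, and 98.33, 101.5 and 140.9 in VP4:2. Only the CC4:2 samples stood apart, and VP4:2 overlapped Control. Tlr8 was lower in CC4:2 than in Control by -1.57 ± 0.22 (adjusted p = 0.00041) and higher in VP4:2 than in CC4:2 by 1.65 ± 0.22 (adjusted p = 0.00153). Against Control, VP4:2 differed by 0.08 ± 0.22 (adjusted p = 0.816). The within-sample log2 ratio of Tlr8 to Tlr2 was 1.63 higher in VP4:2 than in Control (exact two-sided permutation p = 0.1, 0.12 adjusted) and differed by 0.06 between VP4:2 and CC4:2 (exact permutation p = 0.7).

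Tlr9, the sensor of unmethylated CpG DNA, overlapped between most groups. It stood at 6.129, 12.57 and 11.23 CPM in Control, 3.759, 7.105 and 5.012 in CC4:2, 9.095, 7.657 and 11.83 in CC4:4, and 8.002, 9.238 and 5.897 in VP4:2. CC4:2 and Control overlapped. The difference of -0.91 ± 0.33 between them passed (adjusted p = 0.0425), but not without Control replicate 2 (adjusted p = 0.152), Control replicate 3 (0.126), CC4:2 replicate 1 (0.133) or CC4:2 replicate 3 (0.1). It was also lost with limma-voom (0.0681), a platform term (0.0565), no low-count filter (0.0521) or only those groups in the fit (0.12). Between CC4:2 and CC4:4 the difference of -0.85 ± 0.32 did not pass (adjusted p = 0.0595), but it did with the replicate block (0.0496), with DESeq2 (0.0413) and without CC4:2 replicate 2 (0.0348).

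Tlr3, which senses double-stranded RNA and uses the adaptor TRIF in place of MyD88, showed small differences. It stood at 25.36, 20.77 and 26.57 CPM in Control, 31.34, 24.64 and 35.5 in CC4:2, 24.29, 18.84 and 31.8 in CC4:4, and 34.25, 34.7 and 38.95 in VP4:2. The VP4:2 samples lay above the control samples, at 0.57 ± 0.20, which did not pass (adjusted p = 0.0683). It passed with the replicate block (0.58, adjusted p = 0.025), with a platform term (0.0348) and with DESeq2 (0.0382). Unc93b1, the chaperone that carries the endosomal receptors to their compartment, was lower in CC4:2 than in Control by -1.28 ± 0.17 (adjusted p = 0.000332, 55.3 and 135 CPM). It was higher in VP4:2 than in CC4:2 by 1.16 ± 0.17 (adjusted p = 0.00256).

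Myd88, the shared adaptor, had a smaller fold change in CC4:2 than Tlr2, Tlr7 and Tlr8, though the difference between genes was not tested. It stood at 100.7, 66.21 and 66.71 CPM in Control, 34.04, 47.65 and 46.47 in CC4:2, 76.1, 89.51 and 78.72 in CC4:4, and 53.22, 51.99 and 52.69 in VP4:2. CC4:2 lay below Control and CC4:4, and the 3 VP4:2 samples lay close together, above CC4:2 and below Control. Myd88 was lower in CC4:2 than in Control by -0.87 ± 0.18 (adjusted p = 0.00336). Between VP4:2 and CC4:2 it differed by 0.30 ± 0.18 (adjusted p = 0.355). Between VP4:2 and Control it differed by -0.57 ± 0.18 and was not called (adjusted p = 0.05), but it was with RLE scaling (0.0467) and with DESeq2 (0.0227).

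**Figure D2:**
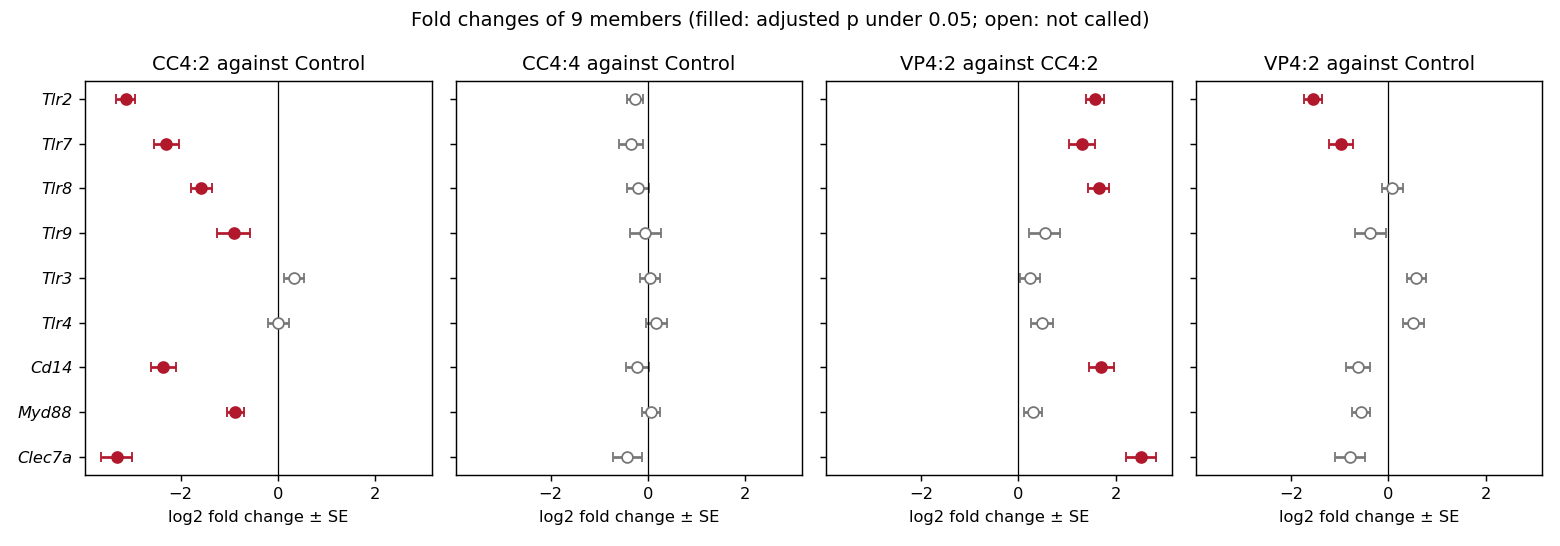
Log2 fold change with its standard error (bars) for each gene but Card9, in the comparisons drawn, from edgeR with 3 samples per group. Clec7a (-3.31) and Tlr2 (-3.13) lie farthest below 0 in CC4:2 against Control, and Tlr4 (0.01) lies at 0.

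Clec7a had the largest fall of the 9 tested genes in CC4:2. Its level was 200.8, 239.3 and 235.2 CPM in Control, 33.88, 13.08 and 20.88 in CC4:2, 188.5, 160.5 and 151.4 in CC4:4, and 132.1, 96.36 and 162.9 in VP4:2. CC4:2 lay below all other samples, and VP4:2 and CC4:4 overlapped. The log2 difference was -3.31 ± 0.32 for CC4:2 against Control (adjusted p = 6.52e-05) and 2.53 ± 0.31 for VP4:2 against CC4:2 (adjusted p = 0.00107). On the NovaSeq samples alone the second was 2.29 (adjusted p = 0.064). For VP4:2 against Control it was -0.79 ± 0.30 and did not pass (adjusted p = 0.0877), though it did with DESeq2 (0.0384).

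Card9, the adaptor downstream of dectin-1, was scarce. It stood at 1.631, 0.6247 and 0.7269 CPM in Control, 0.1588, 0 and 0 in CC4:2, 0.3521, 0 and 0 in CC4:4, and 3.343, 1.504 and 1.515 in VP4:2. The VP4:2 samples overlapped Control and lay above both conduit groups without the drug. Summed over 3 samples, the deposited counts were 46.19 in Control, 2.51 in CC4:2, 6.31 in CC4:4 and 117.92 in VP4:2. No test is given for Card9, because its rise chose it and the conduit groups without the drug held almost no counts. For the same reasons its only fold change is a leave-one-out range in the last section.

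The Card9 counts also depended on how reads were shared with a neighbour. Card9 was not a whole number in 8 of 12 samples, and in all 8 its sum with Dnlz, a gene that overlaps it in RefSeq's GRCr8 annotation, was whole within 0.001. The sum of both genes was 15.8 ± 3.05 CPM in Control, 11.1 ± 1.28 in CC4:2, 14.7 ± 0.321 in CC4:4 and 15.9 ± 2.2 in VP4:2 (SD, n = 3). Dnlz made up most of it, at 14.8, 11.1, 14.5 and 13.8 CPM in the same order. The level of Card9 is therefore uncertain, and the part of read sharing in its rise was not tested. Its upstream sequence, at chr3:29578403-29578652 (minus strand, RefSeq GRCr8), is shown as one in which none of the motifs searched was found. Tlr3 and Clec7a also held none of them.
Card9: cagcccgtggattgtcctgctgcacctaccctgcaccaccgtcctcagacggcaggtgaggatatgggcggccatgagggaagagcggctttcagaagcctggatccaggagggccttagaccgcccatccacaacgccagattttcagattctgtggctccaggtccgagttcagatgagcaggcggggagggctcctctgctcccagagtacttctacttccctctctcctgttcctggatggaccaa

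Levels of macrophage markers moved with the set. Of 15 markers, 11 were lower in CC4:2 than in Control, where 23.2% of all genes were lower. In VP4:2 against CC4:2, 10 were higher, where 5.23% of all genes were. Neutrophil markers summed to 267.9 to 536.1 CPM in Control, 15.72 to 23.46 in CC4:2, 275.5 to 706.1 in CC4:4 and 18.69 to 23.79 in VP4:2. Of the 7 neutrophil markers tested, 6 were lower and 1 was higher in CC4:2 than in Control, where 20.3% of all genes were higher. The higher one was Mpo, a granule enzyme, at 9.28 CPM in CC4:2, 6.36 in VP4:2 and 0.987 in Control (3.23 ± 0.76, adjusted p = 0.00633, named after its values were seen). B and plasma cell markers summed to 13.61 to 192 CPM in CC4:2 and 327.9 to 1185 in VP4:2. Of these 8 markers, 1 was called higher in VP4:2 than in CC4:2, or 5 with the replicate block (5.23% of all genes in the main fit). Jchain, named after its values were seen, held 70.96 of the mean sum of 84.09 CPM in CC4:2 and 754.5 of 827.9 in VP4:2. Dendritic cell markers summed to 203.8 to 329.8 CPM in Control, 52.63 to 98.99 in CC4:2 and 114.9 to 133.1 in VP4:2. T and NK cell markers summed to 209.5 to 292.1, 10.69 to 37.7 and 58.43 to 76.12 CPM in the same order. Of 7 dendritic cell markers tested, 6 were lower and 1 higher in CC4:2 than in Control (23.2% and 20.3% of all genes). In VP4:2 against CC4:2, 1 was higher, or 2 with the replicate block (5.23% of all genes in the main fit). Irf8 held 163.9 of the mean dendritic sum of 249.5 CPM in Control. Zbtb46 went the other way, at 8.10 CPM in Control and 14.9 in CC4:2 (both named after their values were seen). Across a whole group only 1 marker, of neutrophils in VP4:2, was at 0. The part of any of these cell types in the results was not tested.

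Each gene was therefore also set against a macrophage index, the mean log2(CPM + 0.5) of the 15 markers, as a description without a test. The index was 7.99 in Control, 6.54 in CC4:2, 7.63 in CC4:4 and 7.84 in VP4:2. Relative to it, Tlr8 was near its Control value in every group, with differences of -0.12 in CC4:2, 0.14 in CC4:4 and 0.23 in VP4:2 and SDs of 0.15 to 0.23 within groups. Tlr2 was lower than in Control by this measure in CC4:2 (-1.66) and in VP4:2 (-1.39). Clec7a differed by -1.94 in CC4:2 and -0.66 in VP4:2. Tlr4 differed by 1.47 in CC4:2 and Tlr3 by 1.77.

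**Figure D3:**
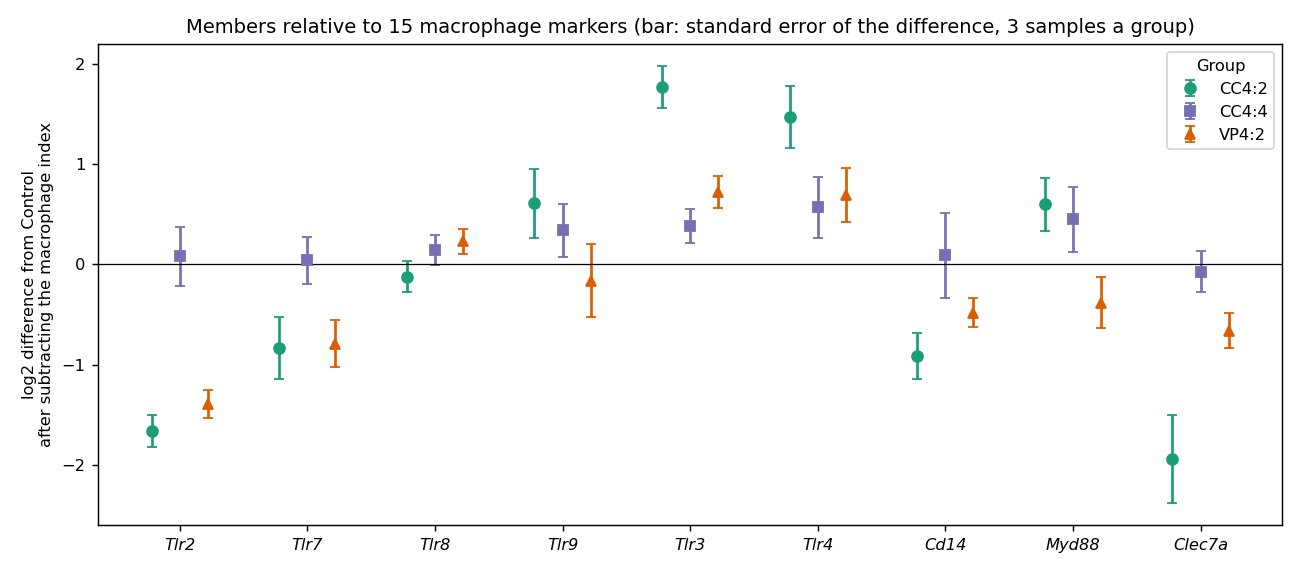
Log2 difference of group means from Control for each gene but Card9, after subtracting the macrophage index (mean log2 of 15 markers). CC4:2, CC4:4 and VP4:2 are shown, and bars are the standard error of the difference. Tlr8 lies near 0 in each group shown, while Tlr2 lies lower in CC4:2 and VP4:2 (-1.66 and -1.39 from Control).

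The genes of nearest pattern were found by the root mean square difference of centred log2 CPM over the 12 samples, among 12986 genes. For Tlr2 they were Igsf6 (0.21), Parvg (0.22) and CXHXorf65 (0.23), against an own SD of 1.24. For Tlr7 they were Fyb1, Gpr65 (0.20 each) and Lcp2 (0.21), and for Tlr8 Cd200r1 (0.17), Zcwpw1 (0.19) and RT1-DMb (0.23). Cd14 was nearest to Fgr (0.19), Lrrc25 (0.20) and Il7 (0.22), and Clec7a to Bcl2a1 (0.24), Lilrb4 (0.26) and Acp3 (0.31). Tlr3 was nearest to Lclat1 and Nmt2 (0.15 each) and Eci2 (0.16), Tlr4 to Sh3bgrl (0.13), Rps6ka3 and Acot9 (0.15 each), and Tlr9 to Panx2 (0.22), Mroh1 (0.23) and Dgkz (0.24). Myd88 was nearest to Surf4 and Pabpc1 (0.10 each) and P4hb (0.11), all widely expressed genes. The nearest genes to Card9 were Gpr143 and Matk (0.46 each) and Lgals3 (0.50), against an own SD of 0.98. The own SD was 0.31 for Tlr3 and Tlr4, 0.43 for Myd88 and 0.47 for Tlr9. Distances are therefore not comparable between members.

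Of the 7 other Toll-like receptors tested, 6 were lower in CC4:2 than in Control (23.2% of all genes). In VP4:2 against CC4:2, 3 were higher (5.23% of all genes). Tlr1, a partner of TLR2, was lower in CC4:2 by -2.62 ± 0.31 (adjusted p = 0.000186) and higher in VP4:2 than in CC4:2 by 2.01 ± 0.31 (adjusted p = 0.00325). Tlr6, the other partner, was lower by -1.43 ± 0.21 (adjusted p = 0.000561), and its rise of 1.04 ± 0.21 with verteporfin (adjusted p = 0.0158) was lost without CC4:2 replicate 2 (0.0562) or VP4:2 replicate 3 (0.0738). Tlr1 and Tlr6 are close relatives and share reads, since Tlr1 was not whole in 11 samples and its sum with Tlr6 was whole in 9 of those. That sum was 58.8 ± 11.1 CPM in Control, 15.2 ± 3.17 in CC4:2, 51.9 ± 14.7 in CC4:4 and 41.4 ± 8.62 in VP4:2. Tlr5, the flagellin receptor, was lower in CC4:2 than in Control (-1.76 ± 0.40, adjusted p = 0.00501) and differed by 0.06 ± 0.39 between VP4:2 and CC4:2 (adjusted p = 0.943). Tlr13, chosen after its values were seen, was 46.4 CPM in Control, 19.9 in CC4:2 and 77.5 in VP4:2, and rose by 1.96 ± 0.25 with verteporfin (adjusted p = 0.00114).

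Signalling genes were counted by list, beside 23.2% of all genes lower and 20.3% higher in CC4:2 than in Control. Of 9 receptor partners and trafficking genes 8 were lower than in Control, of 13 adaptors and proximal kinases 8 were lower and 1 higher, of 12 NF-kB and IRF factors 10 were lower, and of 12 brakes on signalling 11 were lower. Lbp, whose product delivers lipopolysaccharide to CD14, stood at 1846, 285.1 and 190.1 CPM in Control and 18.53, 41.79 and 22.24 in CC4:2. Its difference was -4.81 ± 0.86 (adjusted p = 0.00142), and -3.10 without Control replicate 1 (adjusted p = 0.000612). Rel, an NF-kB subunit, was lower by -2.08 ± 0.26 (adjusted p = 0.000226), and the brake Tnfaip3, which encodes A20, by -2.18 ± 0.31 (adjusted p = 0.000395). Traf6, the ubiquitin ligase of the MyD88 branch, differed by -0.16 ± 0.15 (adjusted p = 0.406).

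Between VP4:2 and CC4:2, where 5.23% of all genes were higher, 6 of 9 receptor partners, 2 of 13 adaptors and kinases, 1 of 12 NF-kB and IRF factors and 3 of 12 brakes were higher. Differences between lists were not tested. With the replicate block the adaptors and kinases numbered 1 and the NF-kB and IRF factors 2. The factor called was Irf5, which drives inflammatory cytokine genes (1.03 ± 0.18, adjusted p = 0.00643). Ly96 was higher by 1.27 ± 0.28 (adjusted p = 0.0249), a call lost without CC4:2 replicate 1 (0.0796), CC4:2 replicate 2 (0.0772), VP4:2 replicate 1 (0.0741) or VP4:2 replicate 3 (0.105). Against Control, 8 of 12 brakes were lower in VP4:2, where 9.57% of all genes were. Among them Irak3, an inhibitor of IRAK signalling, was at -1.35 ± 0.17 (adjusted p = 0.00188) and Tnfaip3 at -1.61 ± 0.30 (adjusted p = 0.00749).

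Of 14 genes of the C-type lectin and CARD9 module, 12 were lower and 1 was higher in CC4:2 than in Control. Of all genes, 23.2% were lower and 20.3% higher there. In VP4:2 against CC4:2, 8 of the module were higher, beside 5.23% of all genes. Clec4e, the lectin Mincle, was lower in CC4:2 by -5.36 ± 0.67 (adjusted p = 0.000222). It was higher with verteporfin by 3.27 ± 0.64 (adjusted p = 0.0123), a call lost without CC4:2 replicate 2 (0.0539) and with limma-voom (0.144). Syk, the kinase of this branch, was lower in CC4:2 by -2.45 ± 0.29 (adjusted p = 0.000165) and higher in VP4:2 than in CC4:2 by 1.52 ± 0.28 (adjusted p = 0.00904). Fcer1g, a signalling chain that couples lectins to SYK, was lower by -1.73 ± 0.19 (adjusted p = 0.000117) and higher by 1.25 ± 0.19 (adjusted p = 0.00269) in the same comparisons.

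Of 12 cytosolic sensors, 8 were lower in CC4:2 than in Control (23.2% of all genes). In VP4:2 against CC4:2, 2 were higher, or 0 with the replicate block (5.23% of all genes in the main fit). Nod2, a sensor of bacterial cell wall fragments, was lower in CC4:2 by -3.37 ± 0.41 (adjusted p = 0.000194) and in VP4:2 by -2.48 ± 0.39 (adjusted p = 0.00465), both against Control. Of 11 endogenous ligands 5 were lower and 2 higher in CC4:2 than in Control, beside 23.2% and 20.3% of all genes. Between VP4:2 and CC4:2, 0 passed, beside 6.23% of all genes. S100a8, a calcium-binding TLR4 ligand made by neutrophils, was lower by -6.47 ± 0.74 in CC4:2 (adjusted p = 0.000146) and by -5.44 ± 0.69 in VP4:2 (adjusted p = 0.00188), both against Control.

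**Figure D4:**
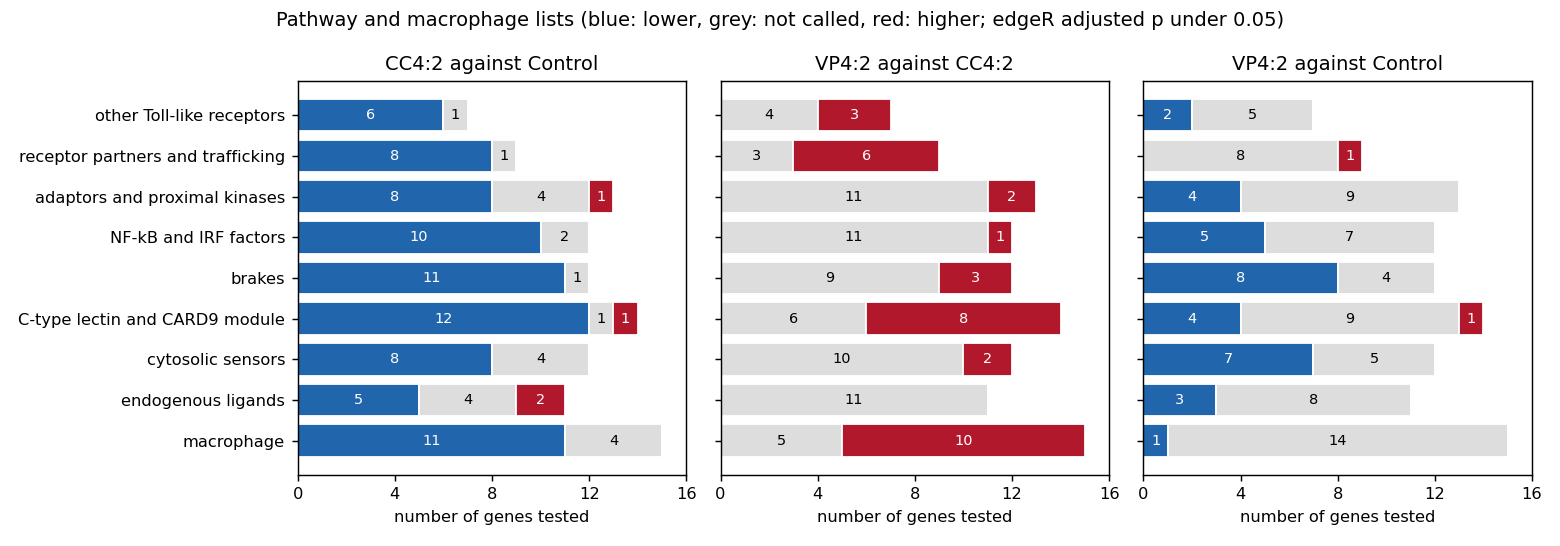
Number of genes called higher or lower by edgeR (adjusted p under 0.05) in each pathway list and in the macrophage markers, by comparison. In CC4:2 against Control most genes of each list but the endogenous ligands (5 lower, 2 higher of 11) were lower. Of all genes, 23.2% were lower and 20.3% higher there.

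Over all 29 pathway genes that the naming rule gave, 23 were called in CC4:2 against Control, and 17 of these calls held with each library of the 2 groups left out in turn. In VP4:2 against CC4:2, 10 were called and 5 held, and in VP4:2 against Control 9 were called and 6 held. Of all genes, 43.5%, 6.23% and 18.9% were called in these comparisons. Of the members' calls, 6 of 7, 5 of 5 and 1 of 2 held in the same comparisons. On the NovaSeq samples alone, with 2 per group, 15 of the 23 pathway calls held, and 0 of the 10 and 0 of the 9. Within platforms, the difference of Tlr2 between VP4:2 and CC4:2 was 1.62 (NovaSeq) and 1.45 (DNBSEQ), and that of Tlr8 was 1.62 and 1.68. That of Tlr7 was 1.60 and 0.80.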

How the data were processed

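Poly(A) RNA of 12 rat nerve stumps was sequenced from stranded libraries, per the labels' protocols. The authors deposited expected counts per gene, with no normalization recorded. HISAT2, StringTie, RSEM and DESeq2 were used, per the submitters' processing notes. Their roles, the genome build and the annotation are not given in the sources used here, and no coordinates of the files are printed. The 12 files were identical tables, so 1 was read and 11 were not used. Of its genes 4367 had no symbol.

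After rounding, edgeR 4.0.16 (R 4.3.3, limma 3.58.1) fitted all 12 samples at once by quasi-likelihood, with TMM scaling, filterByExpr, 1 coefficient for each group and no covariate, which left 8 residual degrees of freedom. A gene was called at an adjusted p under 0.05. SEs were worked back from the F statistic as the absolute log2 change over its root. The test was checked on simulated counts. Reads split between genes make their values uncertain.

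The members, lists and comparisons were chosen with earlier results of these data known. Named genes were all members, the pathway genes marked for naming in the lists, and the 3 genes of nearest pattern to each member with a mean of at least 1 CPM. The text prints values for a part of the pathway genes, chosen after the values were seen. How many calls held is therefore counted over every one of the 29 tested. Same-number samples of CC4:2 and VP4:2 deviated together (correlations 0.12 to 0.43, all 3 pairs over 0.1). The replicate block was therefore read as a possible pairing of these groups, while the main fit used no pairing. Different-number pairs over all groups reached 0.40, with 9 of 36 over 0.1, so the pairing is not established. It rests on the data, and the number also carries the platform. In no other compared groups were all 3 same-number pairs over 0.1. Alternatives were RLE scaling, no low-count filter, DESeq2 1.42.0, limma-voom, only the groups compared, a replicate block, NovaSeq samples only, a platform term and leaving out each library. Leave-one-out values of the 2 ratios, all settings of the pathway genes and list counts with the block were added after seeing the data. Promoters were matched by symbol (10 of 10).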

Additional observations from a re-analysis of the deposited data

How the results depend on the processing

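The number of genes called moved most with fewer samples. With only the 2 groups compared it was 4363 in CC4:2 against Control and 1869 in VP4:2 against Control. On NovaSeq samples only (2 per group) it was 3220 for CC4:2 against Control, 202 for VP4:2 against CC4:2, 3253 for CC4:2 against CC4:4 and 19 for VP4:2 against Control, and the members called were 3 in VP4:2 against CC4:2 and 0 in VP4:2 against Control. DESeq2 called 11 genes in CC4:4 against Control, 1836 in VP4:2 against CC4:2, and 5 members in VP4:2 against Control. With libraries left out in turn, the genes called were 0 to 295 in CC4:4 against Control (295 without Control replicate 1), 466 to 746 in VP4:2 against CC4:2 and 1166 to 4294 in VP4:2 against Control, where 1 to 3 members were called.

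The replicate number may pair CC4:2 with VP4:2, though this is not established. In that comparison the block changed no member's call and ended those of Irak4 (adjusted p = 0.0651) and Clec4d (0.0521). In the other comparisons 0 or 1 of 3 same-number pairs had a correlation over 0.1. The replicate block called 6334, 0, 853, 5705 and 2505 genes and 7, 0, 5, 7 and 3 members in CC4:2 against Control, CC4:4 against Control, VP4:2 against CC4:2, CC4:2 against CC4:4 and VP4:2 against Control.

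The sign changed for values that had not passed the test, and for Card9, which had none. For CC4:2 against Control, Tlr4 was -0.01 with limma-voom, -0.35 on NovaSeq samples and -0.22 to 0.27 with libraries left out, Bgn -0.54 to 0.41, Irf7 -1.59 to 0.35 and Ifih1 -0.60 to 0.08. For CC4:4 against Control, Tlr9 was 0.03 with limma-voom and -0.32 to 0.15 with libraries left out, Tlr3 -0.06 on NovaSeq samples and -0.14 to 0.22, and Myd88 -0.01 to 0.30. For VP4:2 against CC4:2, Ifih1 was -0.01 with RLE and with DESeq2 and -0.23 to 0.33 with libraries left out, Tlr5 -0.07 to 0.29, Tirap -0.04 to 0.14, Irf7 -0.58 to 0.87 and Hmgb1 -0.16 to 0.22. For CC4:2 against CC4:4, Tlr4 was -0.39 to 0.01 and Card9 -4.13 to 3.03. The Card9 range rests on summed counts of only 2.51 in CC4:2 and 6.31 in CC4:4, so no weight is put on it. For VP4:2 against Control, Tlr8 was -0.17 on NovaSeq samples and -0.10 to 0.25, Irf7 0.72 on NovaSeq samples and -1.41 to 0.44, Ifih1 0.03 on NovaSeq samples and -0.41 to 0.08, Bgn 0.17 with limma-voom, 0.01 with the block and -0.29 to 0.67, and Nod1 -0.09 to 0.03. The cause was not tested.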
